A study of Homo sapiens with 4 samples.

Results

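This report covers 40 genes that regulate, or mark, leukaemic and normal blood stem and progenitor cells, followed in the acute myeloid leukaemia line OCI-AML3. The genes were named by symbol and not by a cut on their values, but with earlier results of these data known. They are 5 HOXA and 5 HOXB homeobox genes, the HOX cofactors MEIS1 and PBX3, 7 transcription factors of the stem cell programme (GATA2, ERG, FLI1, LMO2, TAL1, LYL1, RUNX1), 11 further transcription factors, 6 surface proteins and 4 other genes. All 40 were found among the 41084 Ensembl identifiers listed, and 24 had enough counts to be tested. OCI-AML3 is an established human line that carries a mutation of NPM1, the nucleolar shuttling protein. The series holds 2 libraries whose genotype label names CEBPB and 2 whose label names a control. All 4 libraries are of the same line, no treatment, time or clone is given for either group, and what the word Plex means, which stands in both genotype labels, is not stated. The series title places the work in a feedback loop of C/EBPβ, IL-1β and TNFα and in resistance to BCL2 and MDM2 inhibitors.

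HOXA genes encode DNA-binding factors that keep early blood progenitors dividing and are switched off as myeloid cells mature. They bind DNA together with the homeobox cofactors MEIS1 and PBX3, and in leukaemias with mutated NPM1 this group stays switched on, with the menin and KMT2A complex acting on its promoters. Another group of factors, with GATA2, RUNX1, LMO2, LYL1, TAL1, FLI1 and ERG at its centre, binds together at stem cell enhancers. C/EBPβ, the factor named in the CEBPB label, acts in monocytes and granulocytes and in the response to inflammation.

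The named gene was far higher in the libraries labelled with it: CEBPB stood at 4.72 and 4.47 TPM in the controls and at 536 and 339 TPM in the CEBPB libraries. TPM is transcript abundance per length, as a share of each library, so it allows levels of different genes to be compared. Deposited counts came to 19882347 and 21598592 in total for the controls, and to 21950575 and 18151225 for the CEBPB libraries. Nothing in the labels says whether the libraries of a group came from separate cultures, so p-values measure the spread between these samples, which may be technical. With 2 libraries a group, that spread is itself poorly known. The 10 myeloid markers summed to 1876 and 1771 TPM in the controls and to 7894 and 8149 TPM in the CEBPB libraries, a rise in LYZ, the lysozyme gene. By the test described below, 9 of these markers were measured, 3 of them higher and 5 lower in CEBPB. That is 88.9% called, against 48.5% of all identifiers. Those higher were LYZ, ITGAM and CD14. ITGAM stood at 1.53 and 0.972 TPM in the controls and at 4.54 and 5.23 TPM in the CEBPB libraries. CD14 stood at 1.06 and 0.996 TPM against 5.36 and 4.63 TPM. Among those lower were CEBPA, at 93.1 and 89.7 TPM against 11.5 and 12.1 TPM, FCGR1A, at 62.2 and 58.8 TPM against 15.5 and 10.7 TPM, SPI1, at 218 and 223 TPM against 103 and 120 TPM, and CSF3R, at 38.4 and 40.8 TPM against 19.2 and 21.7 TPM. The granule enzyme MPO was low throughout and lower in the CEBPB libraries, at 0.902 and 1.79 TPM in the controls against 0.194 and 0.407 TPM. CD33 lay at 46.5 to 53.0 TPM in every library, and the aminopeptidase ANPEP, which was not tested, did not exceed 0.792 TPM. Of 8 erythroid markers, 6 were listed at 0 in all libraries, and the 6 megakaryocyte markers summed to at most 1.32 TPM. The B cell markers summed to 8.09 and 7.16 TPM in the controls and to 2.97 and 2.52 TPM in the CEBPB libraries, and the T and NK cell markers to 23.3 and 25.4 TPM against 9.42 and 13.7 TPM, mostly NKG7, with CD3E and CD2 listed at 0. The epithelial and fibroblast markers summed to 4.25 and 4.50 TPM in the controls, of which PDGFRB was 2.63 and 3.03 TPM. In the CEBPB libraries they summed to 26.2 and 25.9 TPM, mostly DCN. The part of any of these in the results below was not tested.

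Differences are log2 fold changes of CEBPB over Control from edgeR's quasi-likelihood test on the deposited counts after trimmed-mean scaling, each with its standard error (SE). Adjusted p-values are those of Benjamini and Hochberg over all 13698 identifiers tested, with a threshold of 0.05. Of these identifiers, 48.5% passed, 23.7% higher and 24.7% lower in CEBPB. Of the 24 measured members, 16 passed (66.7%), 5 higher and 11 lower. The 5 that rose were RUNX2, HOXA5, HOXA10, MEIS1 and PBX3. The 11 that fell were GATA2, LMO2, LYL1, RUNX1, FLI1, MYB, ETV6, the receptors FLT3 and CD93, NPM1 and SPINK2. When the test asked for a change beyond 1.5-fold, 17.3% of all identifiers passed (8.66% higher and 8.67% lower) and 13 members did, 3 higher and 10 lower. The median log2 fold change was -0.26 over the measured members and 0.00 over all identifiers, and the median size without sign was 0.95 against 0.44. The TPM values of the groups did not overlap for 20 of the 24 members, against 77.4% of all identifiers tested. Scaling matters for small differences here: with library totals in place of trimmed means, all log2 fold changes moved up by 0.18, and 65.2% of the called identifiers were then higher, against 49.0% with trimmed means. TPM ratios carry the same shift, so the ratio of 2 printed TPM values is larger than the fold change given beside it.

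**Figure D1:**
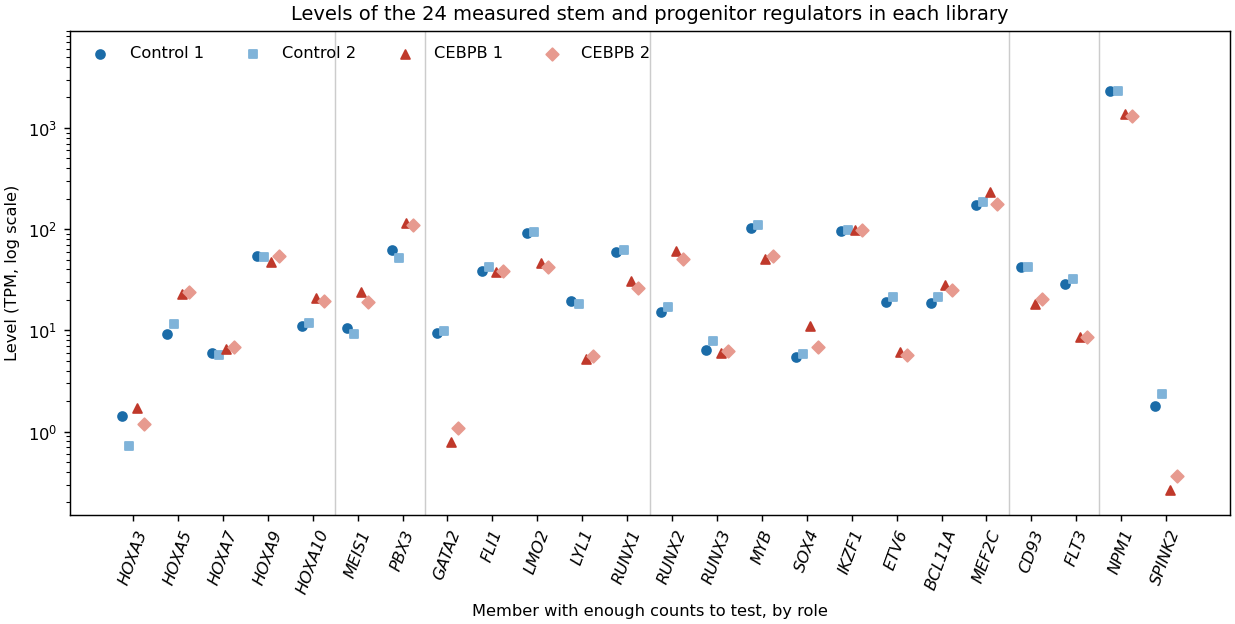
Level of each of the 24 measured members in each library, in TPM on a log axis, with the members in order of role from HOXA genes on the left to NPM1 and SPINK2 on the right. Blue points are the 2 Control libraries and red points the 2 CEBPB libraries. NPM1 lies highest, at 1314 to 2312 TPM, and the widest gap between the colours is that of GATA2, at 9.47 and 9.83 TPM in the controls against 0.795 and 1.08 TPM.

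Promoter sequences are shown because called members moved in both directions and C/EBPβ, the factor named in the CEBPB label, binds a known DNA motif. The RefSeq table used here, on GRCh38.p14, gave 63 windows of 250 bases upstream of a start for 29 of the 40 members. Each window was searched on both strands for 6 short motifs. They were TTGCNNAA for C/EBP factors, AGATAA for GATA factors, TGTGGT for RUNX factors, CGGAAG for ETS factors, TGATTNAT for HOX bound with PBX, and TGACAG for MEIS factors. The RUNX2 stretch below holds the single C/EBP match found among the called members. The whole windows are those of 2 members that rose and 3 that fell. All are printed 5′ to 3′ on the gene's strand, in lower case with motif matches in capitals, and no 2 matches overlap in them.
RUNX2, rose, chr6:45328264-45328293, plus strand: agtaatagtgcTTGCAAAAaaaaggagttt
MEIS1, rose, chr2:66434875-66435124, plus strand: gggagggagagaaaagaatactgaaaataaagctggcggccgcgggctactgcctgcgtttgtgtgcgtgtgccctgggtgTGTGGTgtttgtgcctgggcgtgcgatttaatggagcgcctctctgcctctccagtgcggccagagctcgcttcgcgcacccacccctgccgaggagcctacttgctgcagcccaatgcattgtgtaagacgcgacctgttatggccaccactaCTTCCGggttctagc
PBX3, rose, chr9:125747933-125748182, plus strand: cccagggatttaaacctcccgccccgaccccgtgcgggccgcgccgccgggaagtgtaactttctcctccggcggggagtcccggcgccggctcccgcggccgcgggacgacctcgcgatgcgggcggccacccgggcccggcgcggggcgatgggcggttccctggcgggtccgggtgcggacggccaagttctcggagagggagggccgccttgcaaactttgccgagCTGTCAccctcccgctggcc
GATA2, fell, chr3:128493202-128493451, minus strand: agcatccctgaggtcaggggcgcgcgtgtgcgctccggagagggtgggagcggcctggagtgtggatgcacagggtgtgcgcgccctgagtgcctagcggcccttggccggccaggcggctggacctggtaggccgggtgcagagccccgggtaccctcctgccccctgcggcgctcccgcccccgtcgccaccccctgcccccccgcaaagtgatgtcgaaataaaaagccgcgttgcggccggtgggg
MYB, fell, chr6:135181058-135181307, plus strand: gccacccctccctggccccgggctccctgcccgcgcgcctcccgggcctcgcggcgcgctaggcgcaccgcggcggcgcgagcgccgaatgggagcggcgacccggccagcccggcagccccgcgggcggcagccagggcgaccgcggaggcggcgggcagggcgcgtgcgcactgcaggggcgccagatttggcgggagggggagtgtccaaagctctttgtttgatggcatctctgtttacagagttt
FLT3, fell, chr13:28100577-28100826, minus strand: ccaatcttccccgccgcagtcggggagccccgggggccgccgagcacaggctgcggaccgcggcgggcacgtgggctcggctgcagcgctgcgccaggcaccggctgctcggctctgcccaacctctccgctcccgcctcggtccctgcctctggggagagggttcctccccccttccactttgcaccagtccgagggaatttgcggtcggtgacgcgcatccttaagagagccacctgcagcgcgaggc
The RUNX2 stretch lies in an exon that GENCODE v29 gives as untranslated, and the first base of its TTGCAAAA match is 55 bases upstream of the RefSeq start. In the same window stand a pair of RUNX matches, both ACCACA, at 191 and 87 bases upstream. The MEIS1 window holds a RUNX match, TGTGGT, at 169 bases and an ETS match, CTTCCG, at 15 bases. The PBX3 window holds a MEIS match, CTGTCA, at 20 bases. None of the 6 motifs was found in the windows of GATA2, MYB and FLT3 printed here. The 4 members that rose and had windows held a C/EBP match in 1 of 6 windows, and the 8 that fell and had windows held it in 0 of 11, against 9.05% of all 35116 windows in the table. Over all 63 member windows the shares with a match were 9.52% for C/EBP, 9.52% for GATA, 11.1% for RUNX, 11.1% for ETS, 1.59% for HOX with PBX and 9.52% for MEIS. The shares over all windows of the table were 9.05%, 9.17%, 11%, 16.5%, 2.48% and 13%, in that order. A match is only a match of letters, and the C/EBP motif does not tell the factors of that family apart.

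HOXA genes were expressed at unequal levels along the cluster on chromosome 7, with HOXA9 highest. Of the 5 members 2 rose, which is 40% called against 48.5% of all identifiers. HOXA9 (ENSG00000078399.19, chromosome 7, 27162435 to 27175180, minus strand), the HOX gene most closely tied to myeloid leukaemia, stood at 54.0 and 52.9 TPM in the controls and at 47.8 and 53.9 TPM in the CEBPB libraries. The groups overlapped, and the log2 fold change of -0.25 (SE 0.10) did not pass (adjusted p = 0.0915). Without CEBPB replicate 2 it passed, at -0.37 with an adjusted p of 0.0196. HOXA10 (ENSG00000253293.6, chromosome 7, 27170591 to 27180261, minus strand), its neighbour and another regulator of progenitor growth, stood at 11.1 and 11.7 TPM in the controls and at 20.7 and 19.3 TPM in the CEBPB libraries. Both CEBPB libraries were above both controls, and the log2 fold change was 0.63 (SE 0.09, adjusted p = 0.0037), a rise that was not shown to exceed 1.5-fold (adjusted p = 0.427). HOXA5 (ENSG00000106004.5, chromosome 7, 27141052 to 27143668, minus strand), a factor of progenitor cells, stood at 9.13 and 11.6 TPM in the controls. In the CEBPB libraries it stood at 22.9 and 23.9 TPM, above both controls, and the log2 fold change came to 1.00 (SE 0.14, adjusted p = 0.0032). HOXA5 had an effective transcript length of 1564 bases in Control 1 against 941 to 1072 bases in the other libraries, and on reads recovered from TPM and length its log2 fold change was 0.59. HOXA7 lay at 5.96 and 5.75 TPM in the controls and at 6.59 and 6.86 TPM in the CEBPB libraries. This small step did not pass after trimmed-mean scaling (log2 fold change 0.02, SE 0.15, adjusted p = 0.938), and its sign depended on the setting. HOXA3, a more 3′ gene of the cluster, was low, at 0.72 to 1.72 TPM with overlapping groups (adjusted p = 0.734). The intervals of HOXA9 and HOXA10 overlap on the same strand, as do those of HOXA3 and HOXA5, so reads shared by their transcripts were divided by the authors' estimate.

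The shares of the HOXA genes in their summed TPM differed between the groups. Summed over 10 HOXA genes, the level was 89.0 and 89.9 TPM in the controls and 111.5 and 115 TPM in the CEBPB libraries. HOXA9 made up 60.7% and 58.9% of this sum in the controls and 42.9% and 46.7% in the CEBPB libraries. HOXA5 made up 10.3% and 12.9% against 20.6% and 20.7%, and HOXA10 12.5% and 13.01% against 18.6% and 16.8%. HOXA9 was the highest of these 10 genes in all 4 libraries, while the next place went to HOXA10 in the controls, by a narrow margin in Control 2, and to HOXA5 in both CEBPB libraries. The shares rest on the effective lengths too. HOXA10 had more recovered reads than HOXA5 in every library, at 609 and 485 against 402 and 321 in the CEBPB libraries. HOXA9 had effective lengths of 1053 and 1024 bases in the controls against 1189 and 1213 bases in the CEBPB libraries. Counting error and the division of shared reads are not included in these shares, and the shares were not tested.

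**Figure D2:**
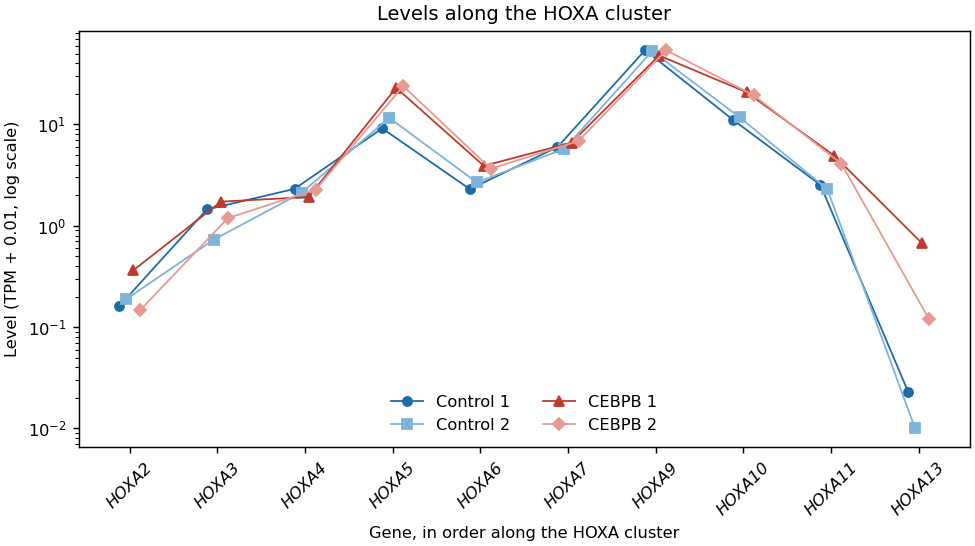
Level of the 10 HOXA genes in each library, in TPM plus 0.01 on a log axis, with the genes in their order along the cluster from HOXA2 to HOXA13. Blue lines are the Control libraries and red lines the CEBPB libraries. All lines peak at HOXA9, at 47.8 to 54.0 TPM, and the red lines run above the blue at HOXA5, HOXA6, HOXA7, HOXA10, HOXA11 and HOXA13. Of these genes only HOXA5, HOXA10 and HOXA11 were called higher. HOXA13 was not tested and had 1 and 0 recovered reads in the controls against 8 and 1 in the CEBPB libraries.

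Outside the members, 28 further HOX genes were followed, and only 3 of them had enough counts to test, all in the HOXA cluster. Of these 1 passed, HOXA11, which is 33.3% against the 48.5% of all identifiers. HOXA11, near the 5′ end of the cluster, stood at 2.52 and 2.28 TPM in the controls and at 4.88 and 4.08 TPM in the CEBPB libraries (log2 fold change 0.72, SE 0.21, adjusted p = 0.037). This call was lost with DESeq2 (adjusted p = 0.179) and when any 1 of the 4 libraries was left out, at adjusted p-values of 0.0659 to 0.16. The HOXB members, HOXB2, HOXB3, HOXB4, HOXB5 and HOXB6, which act in normal stem cell renewal, were each listed at 0 in all 4 libraries. A count of 0 allows up to 3 reads, which corresponds to 0.0902 to 0.237 TPM for these genes, as far as counting error goes. Of the 28 further HOX genes, 17 were also listed at 0 throughout, and no untested one passed 0.660 TPM. The non-coding RNAs of the HOX clusters were not analysed here.

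The HOX cofactors both rose. MEIS1 (ENSG00000143995.20, chromosome 2, 66433452 to 66573869, plus strand), a homeobox protein that binds DNA with HOXA9, stood at 10.6 and 9.31 TPM in the controls and at 24.02 and 19.2 TPM in the CEBPB libraries. The groups did not overlap, and the log2 fold change was 0.94 (SE 0.13, adjusted p = 0.0032; 0.0376 against a 1.5-fold change). PBX3 (ENSG00000167081.18, chromosome 9, 125747345 to 125967377, plus strand), the cofactor that binds both partners, was much more abundant, at 62.3 and 51.9 TPM in the controls and 116 and 110 TPM in the CEBPB libraries. On the log2 scale the fold change came to 0.81 (SE 0.10, adjusted p = 0.0023), with an adjusted p of 0.0587 against a 1.5-fold change. The whole windows printed above for genes that rose are those of MEIS1 and PBX3, and neither window holds a C/EBP match. In both groups PBX3 was higher per length than HOXA5, HOXA7, HOXA10 and MEIS1 in every library.

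The chromatin and partner genes of this programme did not move together. Of 23 listed genes of the menin and KMT2A complexes, their reader and elongation partners, other MEIS and PBX genes and XPO1, 20 were tested, 6 rose and 4 fell, which is 50% called, close to the 48.5% of all identifiers. AFF4, a scaffold of the super elongation complex, stood at 12.2 and 12.9 TPM in the controls and at 36.6 and 38.8 TPM in the CEBPB libraries (log2 fold change 1.41, SE 0.10, adjusted p = 4.1e-04). Its relative AFF1 fell, from 33.0 and 33.7 TPM to 22.2 and 21.5 TPM (log2 fold change -0.79, SE 0.07, adjusted p = 9.3e-04). WDR5, a core subunit of KMT2 methyltransferase complexes, fell from 43.5 and 43.1 TPM to 25.6 and 26.5 TPM (log2 fold change -0.91, SE 0.08, adjusted p = 7.6e-04). These 3 also passed against a 1.5-fold change, and no other gene of the list did, which is 15% against 17.3% of all identifiers. MEN1, which encodes menin, stood at 29.8 and 31.7 TPM against 26.9 and 25.3 TPM, or -0.42 on the log2 scale (adjusted p = 0.0080), which did not pass with library totals (adjusted p = 0.0753) or without Control replicate 2 (0.055). DOT1L, the histone methyltransferase recruited by this machinery, was called lower, at -0.44 on the log2 scale (adjusted p = 0.0239), a call lost with DESeq2 (0.0656), with library totals (0.112) and without Control replicate 2 (0.12), CEBPB replicate 1 (0.108) or CEBPB replicate 2 (0.0638). MEIS2, KAT7, MLLT10 and XPO1 were called higher with log2 fold changes of 0.20 to 0.48, and each of these 4 calls was lost without Control replicate 1 and without Control replicate 2. PSIP1, ASH2L, KAT6A, RBBP5 and DPY30 did not pass. KAT6A missed narrowly (log2 fold change 0.22, SE 0.07, adjusted p = 0.0538). It kept that side in 10 of 17 alternatives, and it passed with upper-quartile scaling (adjusted p = 0.0386) and on recovered reads (0.0051). The calls of the smaller differences rest on the scaling: with library totals 10 of the 20 were called higher and 2 lower. Fewer genes of the list were called higher without Control replicate 1, Control replicate 2 or CEBPB replicate 1, and fewer were called lower without Control replicate 2. Fewer of all identifiers were called in these fits as well.

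Of the 7 factors of the stem cell programme, 5 were measured and all 5 were called lower in CEBPB, against 24.7% of all identifiers, though the call of FLI1 held in 7 of 17 alternatives. GATA2 (ENSG00000179348.13, chromosome 3, 128479427 to 128493185, minus strand), a zinc finger factor needed for stem cell maintenance, stood at 9.47 and 9.83 TPM in the controls and at 0.795 and 1.08 TPM in the CEBPB libraries. The difference between the groups was far wider than that within them: the log2 fold change was -3.54 (SE 0.23, adjusted p = 3.7e-04), which is 11.7-fold lower. Only 0.526% of all tested identifiers had a log2 fold change this low. LYL1 (ENSG00000104903.5, chromosome 19, 13099033 to 13103161, minus strand), a helix-loop-helix factor, stood at 19.3 and 18.2 TPM against 5.20 and 5.58 TPM (log2 fold change -1.98, SE 0.12, adjusted p = 3.1e-04). LMO2 (ENSG00000135363.12, chromosome 11, 33858576 to 33892289, minus strand), the LIM protein that bridges helix-loop-helix and GATA factors, stood at 90.6 and 93.5 TPM in the controls. In the CEBPB libraries LMO2 stood at 46.7 and 42.0 TPM, and its fold change on the log2 scale came to -1.23 (SE 0.07, adjusted p = 2.4e-04). RUNX1 (ENSG00000159216.19, chromosome 21, 34787801 to 36004667, minus strand), the core binding factor on which definitive blood formation depends, stood at 60.0 and 62.3 TPM against 31.0 and 26.0 TPM (log2 fold change -1.28, SE 0.08, adjusted p = 3.7e-04). These 4 passed against a 1.5-fold change as well, as did 8.67% of all identifiers in this direction. Their TPM values did not overlap between groups, which held for 77.4% of all identifiers tested.

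In the same set FLI1 differed by less, and ERG and TAL1 were at or near 0. FLI1 (ENSG00000151702.18, chromosome 11, 128686535 to 128813267, plus strand), an ETS factor, stood at 38.7 and 42.6 TPM in the controls and at 37.5 and 38.3 TPM in the CEBPB libraries. A difference of -0.28 on the log2 scale (SE 0.08) passed narrowly (adjusted p = 0.0415) and was lost when any 1 of the 4 libraries was left out, at adjusted p-values of 0.0546 to 0.227, with DESeq2 (0.111) and with library totals (0.375). ERG, the ETS factor closest to FLI1, was listed at 0 in all libraries. TAL1, a helix-loop-helix factor related to LYL1, was close to 0, at 0.033 and 0.031 TPM in the controls and at 0.313 and 0.228 TPM in the CEBPB libraries, and was not tested on the deposited counts. On recovered reads, of which it had 3 and 3 in the controls and 20 and 17 in the CEBPB libraries, edgeR's quasi-likelihood test gave 2.56 as the log2 fold change (SE 0.51, adjusted p = 0.0047). With no filter on the deposited counts the adjusted p was 0.259.

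Partners of these factors moved in both directions. Of 27 listed cofactors, dimer partners and inhibitors, 21 were tested, 7 rose and 9 fell, which is 76.2% called against 48.5% of all identifiers. CBFA2T3, a corepressor found with LMO2, LYL1 and GATA factors, stood at 14.2 and 14.9 TPM in the controls and at 1.21 and 1.80 TPM in the CEBPB libraries (log2 fold change -3.44, SE 0.22, adjusted p = 3.5e-04). ID3, an inhibitor of helix-loop-helix dimers, stood at 8.34 and 8.90 TPM against 1.19 and 1.33 TPM (log2 fold change -2.96, SE 0.19, adjusted p = 3.5e-04). Another identifier holds the same values as ID3 in every library, so the printed level may be only a part of that of the gene. SSBP2, which stabilises the LDB1 bridge, fell by 0.89 and ID2 by 0.79 on the log2 scale (adjusted p = 0.0014 and 0.0033). The dimer partner TCF3 stood at 68.4 and 64.9 TPM against 56.6 and 51.4 TPM, and fell by 0.48 (adjusted p = 0.0035). The other dimer partner TCF12 stood at 36.2 and 43.4 TPM against 65.3 and 59.4 TPM, and was 0.47 higher on the log2 scale (adjusted p = 0.0140). TLE1, a corepressor used by RUNX factors, rose from 8.27 and 8.88 TPM to 32.0 and 22.01 TPM (log2 fold change 1.47, SE 0.18, adjusted p = 0.0020). The coactivators EP300 and CREBBP were higher by 0.88 and 0.53 on the log2 scale (adjusted p = 0.0028 and 0.0131), and LMO4 by 0.59 (adjusted p = 0.0024). SSBP4 fell by 1.35, but its CEBPB libraries lay apart, at 18.05 and 38.0 TPM (adjusted p = 0.0243). LDB1, the bridge itself, fell by 0.30 (adjusted p = 0.0395), a call lost with library totals (adjusted p = 0.293) and without Control replicate 1, Control replicate 2 or CEBPB replicate 1 (0.0863 to 0.19). CBFB, the common partner of all RUNX proteins, stood at 94.6 and 89.7 TPM against 102 and 105 TPM and did not pass (adjusted p = 0.963), and neither did TLE4 and HHEX. Fewer genes of the list were called higher without Control replicate 1 and without CEBPB replicate 1, and so were fewer of all identifiers. The calls of CREBBP and TCF12 were lost in both cases, and that of SSBP4 without Control replicate 1 (adjusted p = 0.0582).

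The 3 RUNX genes, which encode factors that bind the same DNA motif, went apart. RUNX2 (ENSG00000124813.23, chromosome 6, 45328157 to 45664349, plus strand), best known from bone and also active in myeloid and dendritic cells, stood at 15.1 and 17.1 TPM in the controls and at 61.2 and 51.1 TPM in the CEBPB libraries. The log2 fold change of RUNX2 reached 1.62 (SE 0.10, adjusted p = 3.5e-04; 9.8e-04 against a 1.5-fold change), the highest of the 24 measured members, and 4.8% of all identifiers had one at least as high. RUNX3 lay at 6.38 and 7.90 TPM against 5.96 and 6.28 TPM and did not pass (log2 fold change -0.40, SE 0.17, adjusted p = 0.109). With the fall of RUNX1 given above, the order of the genes changed: RUNX1 was the highest in both controls and RUNX2 in both CEBPB libraries. RUNX1 made up 73.7% and 71.4% of the summed RUNX level in the controls and 31.6% and 31.2% in the CEBPB libraries. RUNX2 made up 18.5% and 19.6% against 62.3% and 61.3%. The sum itself was 81.4 and 87.2 TPM in the controls and 98.2 and 83.3 TPM in the CEBPB libraries, so the groups overlapped.

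The effective length that the authors deposited with each gene is the mean length of its transcripts weighted by their abundance, so it moves when other transcripts of a gene are used. For RUNX2 it was 2554 and 2358 bases in the controls and 3355 and 3621 bases in the CEBPB libraries, a ratio of means of 1.42. For RUNX1 it was 4174 and 4319 bases against 5144 and 5767 bases, a ratio of 1.28. For RUNX3 it was 2917 and 2657 bases against 3801 and 3539 bases, a ratio of 1.32. The 3 RUNX genes were thus longer in both CEBPB libraries than in both controls. Ratios at least this high were found for 1.99%, 4.08% and 3.39% of all tested identifiers, for RUNX2, RUNX1 and RUNX3 in that order, and the median ratio was 1.02. In limma on log2 length no identifier passed an adjusted p of 0.05, and 0% of the 13698 were called: the lowest adjusted p was 0.144, 1802 identifiers had an unadjusted p under 0.05, and RUNX2, RUNX3 and RUNX1 had adjusted p-values of 0.278, 0.291 and 0.306. Of the 24 members, 13 were longer in CEBPB without overlap, against 43% of all identifiers, and 1 was shorter, against 9.27%. The deposited values do not give single transcripts, so a change in the transcripts used was not shown.

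**Figure D3:**
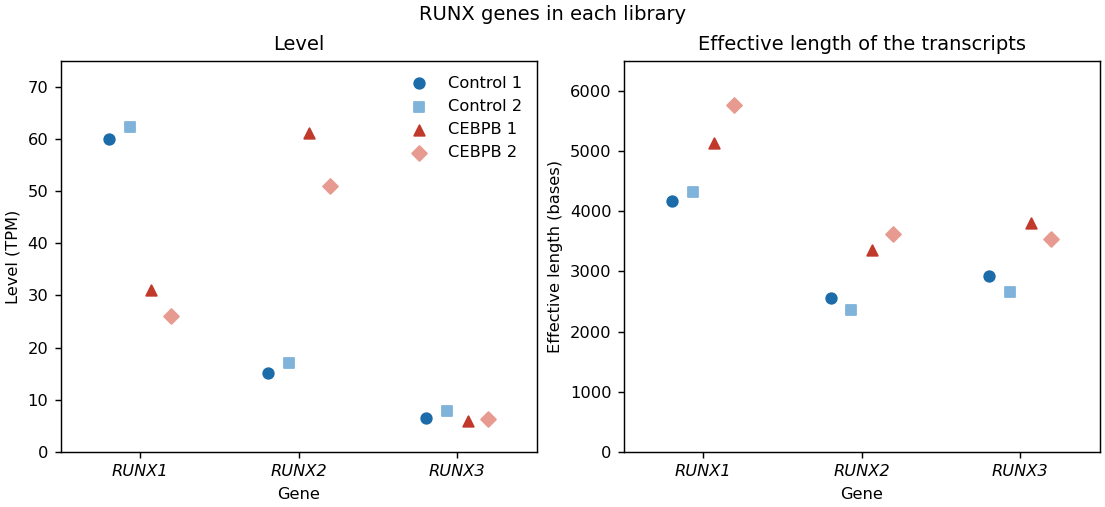
Level in TPM (left) and effective transcript length in bases (right) of RUNX1, RUNX2 and RUNX3 in each library, on linear axes from 0. Blue points are the Control libraries and red points the CEBPB libraries. RUNX1 lies at 60.0 and 62.3 TPM in the controls and RUNX2 at 61.2 and 51.1 TPM in the CEBPB libraries, and for each of the 3 genes both red lengths lie above both blue ones.

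Of the 11 further transcription factors, 8 were tested. RUNX2 rose, as given above, and 2 fell, which is 37.5% called against 48.5% of all identifiers. MYB (ENSG00000118513.20, chromosome 6, 135181315 to 135219173, plus strand), a factor that keeps progenitors dividing and is shut down in maturing cells, stood at 103 and 110 TPM in the controls and at 50.2 and 54.4 TPM in the CEBPB libraries. The groups lay well apart, with -1.20 as the log2 fold change (SE 0.09, adjusted p = 5.3e-04). ETV6 (ENSG00000139083.11, chromosome 12, 11649854 to 11895402, plus strand), an ETS repressor that stem cells of the adult marrow need, stood at 19.3 and 21.2 TPM against 6.06 and 5.73 TPM. On the log2 scale ETV6 differed by -1.96 (SE 0.11, adjusted p = 2.6e-04), 3.88-fold lower. Both falls passed against a 1.5-fold change, as did 8.67% of all identifiers in that direction.

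The other 4 measured factors of this group, like RUNX3, did not pass. MEF2C, a MADS box factor, had the highest level of all transcription factors among the members, at 175 and 184 TPM in the controls and 230 and 177 TPM in the CEBPB libraries. The CEBPB values fell on either side of Control 2, and the log2 fold change was 0.00 (SE 0.11, adjusted p = 0.997), with a sign that depended on the setting. IKZF1, the zinc finger factor Ikaros, lay between 96.1 and 98.2 TPM in all 4 libraries (log2 fold change -0.17, SE 0.07, adjusted p = 0.0897; 0.01 with library totals). BCL11A, a zinc finger repressor, stood at 18.5 and 21.2 TPM against 28.3 and 25.3 TPM (log2 fold change 0.25, SE 0.10, adjusted p = 0.0863), and it passed with library totals, at 0.43 with an adjusted p of 0.0249. SOX4, an HMG box factor, stood at 5.46 and 5.86 TPM against 11.01 and 6.90 TPM. Its 2 CEBPB libraries differed by more from each other than CEBPB replicate 2 did from the controls, and the log2 fold change of 0.48 (SE 0.23) did not pass (adjusted p = 0.141), but did without CEBPB replicate 2 (0.75, adjusted p = 0.0239). MN1, a coactivator that is high in another form of myeloid leukaemia, did not pass 0.1295 TPM. HLF, a stem cell factor of the PAR bZIP family, and IKZF2, the Ikaros relative Helios, were listed at 0 throughout.

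The surface proteins among the members were either clearly expressed and lower in CEBPB, or near 0. FLT3 (ENSG00000122025.15, chromosome 13, 28003274 to 28100592, minus strand), the receptor kinase of progenitors, stood at 28.95 and 32.5 TPM in the controls and at 8.62 and 8.56 TPM in the CEBPB libraries. On the log2 scale FLT3 differed by -2.02 (SE 0.10, adjusted p = 2.0e-04), 4.06-fold lower, and the replicates of each group lay close together. CD93 (ENSG00000125810.10, chromosome 20, 23079349 to 23086340, minus strand), a C-type lectin that marks a class of leukaemia stem cells and is also found on monocytes, stood at 42.2 and 42.3 TPM against 18.1 and 20.4 TPM (log2 fold change -1.31, SE 0.10, adjusted p = 5.7e-04). CD34, the classical marker of stem and progenitor cells, did not pass 0.014 TPM in any library. KIT, the receptor of stem cell factor, did not pass 0.068 TPM, and CD200, an immune inhibitory ligand, was seen in 1 library at 0.016 TPM. PROM1, the marker CD133, was listed at 0 in all 4. In bulk RNA, fewer cells of a type and less RNA per cell cannot be told apart.

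NPM1 (ENSG00000181163.14, chromosome 5, 171387116 to 171411137, plus strand) was the most abundant member. It stood at 2312 and 2307 TPM in the controls and at 1378 and 1314 TPM in the CEBPB libraries. The replicates of a group differed far less than the groups, and the log2 fold change was -0.96 (SE 0.05, adjusted p = 2.5e-04; 0.0019 against a 1.5-fold change). By level it ranked 73 in both controls and 102 and 106 in the CEBPB libraries among all identifiers listed. NPM1 has many processed pseudogenes whose reads resemble its own, so the division of reads among them rests on the authors' estimate, and the files do not separate the mutant from the normal allele. SPINK2 (ENSG00000128040.13, chromosome 4, 56809860 to 56821742, minus strand), a short protease inhibitor that is part of stem cell signatures, was low, at 1.80 and 2.33 TPM in the controls and 0.264 and 0.361 TPM in the CEBPB libraries. The log2 fold change of SPINK2 was -2.81 (SE 0.43, adjusted p = 0.0042), but it rested on 7 and 13 recovered reads in the controls and 1 and 2 in the CEBPB libraries, and without Control replicate 2 the adjusted p was 0.0511. In the fits on recovered reads SPINK2 had too few reads to be tested. BAALC, a marker of poor outcome in leukaemia with normal karyotype, was seen in CEBPB replicate 1 alone, at 0.366 TPM. MSI2, an RNA-binding protein of stem cells, did not pass 0.207 TPM.

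**Figure D4:**
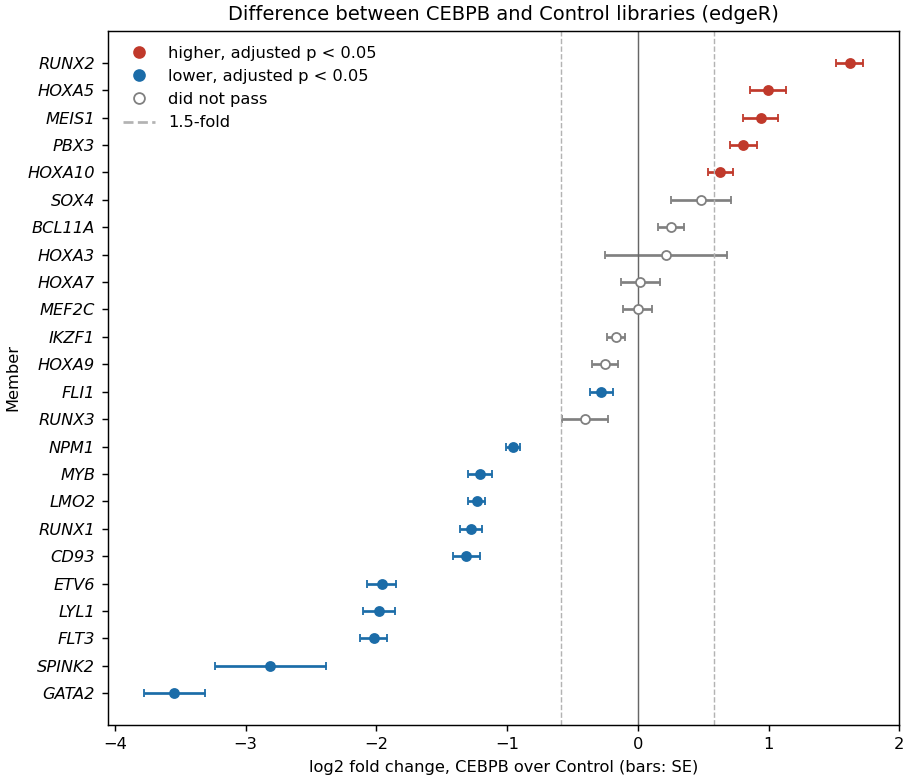
Difference between CEBPB and Control libraries for the 24 measured members, as the edgeR log2 fold change with bars of 1 SE, sorted from highest to lowest. Red points rose and blue points fell at an adjusted p under 0.05, open points did not pass, and dashed lines mark 1.5-fold. RUNX2 stands highest, at 1.62, and GATA2 lowest, at -3.54.

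Set against all tested identifiers, several members that fell lay far out, while the HOXA genes and their cofactors did not. Of the 13698 identifiers, 2.38% had a log2 fold change as low as that of FLT3, 2.47% as low as that of LYL1 and 2.5% as low as that of ETV6. For CD93, RUNX1, LMO2 and MYB the shares were 6%, 6.24%, 6.75% and 7.07%, and for NPM1 10%. Among the members that rose, 10.5% of all identifiers lay at or above HOXA5, 11.5% at or above MEIS1, 14.1% at or above PBX3 and 18.8% at or above HOXA10. RUNX2 stood further out, with 4.8% of identifiers at or above it. GATA2, SPINK2, FLT3, LYL1 and ETV6 each fell by an amount that 2.5% of identifiers or fewer reached, though SPINK2 rested on the few reads given above.

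**Figure D5:**
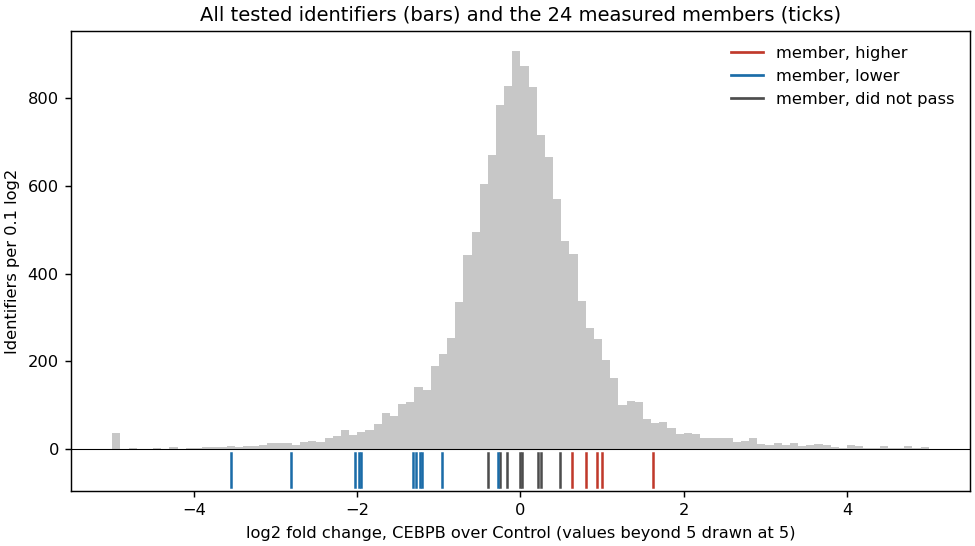
Log2 fold changes of all 13698 tested identifiers as bars of width 0.1, with a tick below the axis for each of the 24 measured members, red for those that rose, blue for those that fell and grey for those that did not pass. The blue ticks reach from -0.28 (FLI1) to -3.54 (GATA2) and the red ones from 0.63 (HOXA10) to 1.62 (RUNX2).

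In all, 16 of the 40 members were not tested. Of these, 9 were listed at 0 in every library (HOXB2, HOXB3, HOXB4, HOXB5, HOXB6, ERG, IKZF2, HLF and PROM1), for which 3 reads would give 0.0509 to 0.237 TPM. The other 7 (TAL1, MN1, CD200, CD34, KIT, MSI2 and BAALC) did not pass 0.366 TPM, and apart from TAL1 none had more than 4 recovered reads in a library. For these genes other than TAL1, a difference between the groups was not detectable at this depth.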

How the data were processed

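In 2 CEBPB and 2 Control libraries of OCI-AML3, poly(A) RNA was sequenced with a stranded kit, per the labels. Trimmomatic 0.39, kallisto 0.46.2 and GRCh38 are named in the submitters' processing notes. Which annotation was used, whether strand was set and how transcripts were joined to genes is not given in the sources used here. The authors deposited TPM, expected counts (estimated counts) and, in another unit, effective transcript length per gene in bases. A deposited count is the gene's TPM multiplied by a constant of its library, so the counts carry no transcript length. Reads were recovered by multiplying TPM by effective length and rescaling to the library total. Between 0.2 and 500, from 58.7% to 60.8% of recovered values were within 0.01 of whole numbers. Symbols matched 35690 of 41084 identifiers, and no member had more than 1 identifier. GENCODE v29 on GRCh38 gave the gene coordinates.

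Rounded counts of the 13698 identifiers that passed filterByExpr were scaled by trimmed means (factors from 0.938 to 1.09) and tested by group alone with edgeR 4.0.16 (R 4.3.3). The biological coefficient of variation was 11.3%. The standard error is the log2 fold change divided by the root of its F statistic. Alternatives were DESeq2 1.42.0, limma 3.58.1 (voom, and log2 TPM with 1 or 0.1 added), other scalings and filters, recovered reads with and without a length offset, a replicate block, a test against 1.5-fold and each library left out, where the spread of a lone library is taken from the other group. The fit was tested on simulated data. Matplotlib 3.10.9 (Python 3.11.15) drew the figures. Floors of 3 reads cover counting error only. The members, the companion lists, the tests and the alternatives were chosen with earlier results of these data known. All members are accounted for, and from each companion list the text gives the counts, up to 4 genes with the smallest adjusted p (1 of each direction where both passed) and genes at 20 TPM or more, of which some are given in groups. For 1 gene of these lists, no result is reported here.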

Additional observations from a re-analysis of the deposited data

How the results depend on the processing

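Of the 24 measured members, 13 kept their direction and their side of the threshold under all 17 alternatives, and 11 changed under at least 1, of which HOXA9, HOXA10, PBX3, FLI1, SOX4, BCL11A and SPINK2 are described with their values in the report. With 2 libraries a group and members at or under 0.366 TPM untested, small differences are limited by the number of libraries and low ones by depth. Against a 1.5-fold change, 1186 identifiers were higher and 1188 lower, 3 members were higher, and the counts higher and lower were 0 for the other HOX genes (higher), 1 and 2 for the HOX and menin partners, 2 and 4 for the stem cell factor partners, 2 for paralogues (lower) and 0 for the LSC17 genes (lower), since a larger change is asked for. Of the other HOX genes, 0 were higher with no filter, with the replicate block and with DESeq2 (HOXA11 at adjusted p-values of 0.0502, 0.0598 and 0.179). Of the HOX and menin partners, 10 were higher and 2 lower with library totals and with log2 TPM plus 1 or plus 0.1, and 3 were higher with DESeq2. Leaving out any 1 library gave 0 other HOX genes higher, 1 to 6 HOX and menin partners higher and 2 to 4 lower, and 3 to 5 stem cell factor partners higher. Over all identifiers too, fewer were called higher and fewer lower in each fit without 1 library. The cause of these shifts was not tested, except that a fit without 1 library has fewer samples.

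Log2 fold changes that turned sign were those of genes that did not pass. With 1 library left out, HOXA3 ranged from -0.20 to 0.77 (-0.055 without CEBPB replicate 1), HOXA7 from -0.040 to 0.088 (-0.014 without Control replicate 2), MEF2C from -0.15 to 0.15 (0.036 without Control replicate 2), DPY30 from -0.00072 to 0.057, RBBP5 from -0.094 to 0.056 (0.0081 without Control replicate 1) and CBFB from -0.059 to 0.059 (0.032 without Control replicate 1). HOXA7 was at -0.031 on recovered reads. IKZF1 was at 0.0099 with library totals and at 0.0097 and 0.0098 on log2 TPM plus 1 and plus 0.1. MEF2C was at 0.00049 with DESeq2 size factors, 0.021 with upper-quartile scaling, 0.18 with library totals, 0.0044 with a minimum of 1 CPM, 0.00039 with DESeq2, 0.17 and 0.17 on log2 TPM and 0.13 on recovered reads. RBBP5 was at 0.00079 with upper-quartile scaling, 0.16 with library totals, 0.15 and 0.15 on log2 TPM and 0.0030 on recovered reads. HHEX was at 0.087 with library totals and 0.079 and 0.082 on log2 TPM. CBFB was at 0.017 with upper-quartile scaling, 0.17 with library totals, 0.17 and 0.17 on log2 TPM and 0.20 on recovered reads (adjusted p = 0.0131). IKZF5 was at 0.0075 with library totals and 0.0091 and 0.0096 on log2 TPM.

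The replicate numbers are shared between the groups but nothing says that they pair libraries: the correlation of deviations of same-numbered libraries was -0.04. With the replicate number as a block, 3174 identifiers were higher and 3308 lower, and the members stayed at 5 higher and 11 lower. The block moved the other HOX genes to 0 higher, with HOXA11 at an adjusted p of 0.0598, and left XPO1 at 0.077 and LDB1 at 0.0515.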

Other observations

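Relatives of the members also differed, in directions of their own. Of 26 listed paralogues, 17 were tested, 4 rose and 6 fell, which is 58.8% called against 48.5% of all identifiers. NPM3, a nucleolar relative of NPM1, stood at 133 and 137 TPM in the controls and at 45.7 and 42.0 TPM in the CEBPB libraries (edgeR log2 fold change -1.80, SE 0.06, adjusted p = 1.2e-04). MEF2D, the relative of MEF2C, stood at 42.5 and 42.5 TPM against 8.78 and 10.2 TPM (log2 fold change -2.34, SE 0.12, adjusted p = 2.0e-04), while MEF2C did not pass. Another identifier holds the same values as MEF2D in every library, so its printed level may be only a part of that of the gene. ETS2, of the same family as ETV6, FLI1 and ERG, rose from 15.8 and 13.9 TPM to 83.1 and 65.2 TPM (log2 fold change 2.14, SE 0.12, adjusted p = 2.8e-04). NFIL3, a bZIP repressor related to HLF, rose from 18.1 and 15.8 TPM to 86.3 and 64.0 TPM (log2 fold change 1.97, SE 0.15, adjusted p = 4.9e-04). MYBL2, the cell cycle relative of MYB, stood at 115 and 119 TPM against 86.0 and 85.0 TPM, and fell by 0.63 on the log2 scale (adjusted p = 0.0012). IKZF5, a relative of IKZF1, did not pass (adjusted p = 0.346).

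The 17 genes of the LSC17 score, a published stemness signature of leukaemia, did not move in 1 direction. The score itself was not computed, so the direction of single genes does not say whether it differed. Of them 9 were tested, 3 rose and 3 fell, which is 66.7% called against 48.5% of all identifiers. Against a 1.5-fold change 2 passed (22.2%, against 17.3%). AKR1C3, an aldo-keto reductase, rose from 7.47 and 5.05 TPM to 51.3 and 41.5 TPM (log2 fold change 2.71, SE 0.19, adjusted p = 4.4e-04). SOCS2, a feedback inhibitor of cytokine signalling, rose from 20.2 and 21.3 TPM to 56.1 and 44.1 TPM (log2 fold change 1.09, SE 0.11, adjusted p = 0.0012). MMRN1, multimerin, was higher by 0.55 on the log2 scale (adjusted p = 0.0032). DNMT3B, a DNA methyltransferase, stood at 12.5 and 12.8 TPM against 8.60 and 8.37 TPM and fell by 0.75 (adjusted p = 0.0039). The kinase gene CDK6 fell by 0.69 (adjusted p = 0.0057), and LAPTM4B by 0.26 (adjusted p = 0.0227), a call lost with library totals (adjusted p = 0.446), with DESeq2 (0.101) and without any 1 of the libraries (0.054 to 0.142). CD34, which is both a member and part of the score, was near 0 in all libraries, and 1 gene of the score was not analysed here.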
